A study of Rattus norvegicus with 4 samples.

Results

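Glycolysis, the pentose phosphate pathway and the tricarboxylic acid (TCA) cycle were described here through 39 rat genes, chosen by name: every gene spot on the arrays whose RefSeq transcript belongs to one of these genes was used. They are 39 of 16581 genes that could be named on the arrays, and they are measured by 60 probes. A member was detected when 1 of its probes was flagged well above background by the scanner software on all 4 arrays, and 21 of the 39 were.

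The RNA came from NR8383, a macrophage line that was derived from rat lung lavage and grows partly attached and partly afloat. All 4 samples belong to 1 group, cultures at 20 passages exposed for 4 h to the multi-walled carbon nanotube NRCWE006 at 1 cm2/cm2, with 4 biological replicates by the labels. The cultures without nanotubes that belong to the study's design are not analysed here, so nothing below measures an effect of exposure. With 1 group there is no comparison to test, and no p-value is given. The arrays measure RNA from whole cultures, in which fewer cells and less RNA per cell cannot be told apart.

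Glycolysis splits glucose into pyruvate in the cytosol, and lactate dehydrogenase turns pyruvate into lactate to regenerate the NAD that glycolysis consumes. The pentose phosphate pathway branches off after the hexokinase step and yields NADPH, which phagocytes use for the oxidative burst and for keeping glutathione reduced. In mitochondria, pyruvate dehydrogenase feeds the TCA cycle, and macrophages are known for raising glycolysis and rerouting that cycle when activated. Several steps are catalysed by isoenzymes from separate genes, such as the hexokinases and the phosphofructokinases.

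Some macrophage markers were detected, and few markers of other lung cells. Of 12 macrophage markers 5 were detected (Cd68, Lyz2, Fcgr1a, Spi1 and Laptm5), while Itgam, Csf1r, Adgre1 and Mrc1 were well above background on no array. None of 7 lung epithelial, 5 fibroblast, 3 lymphocyte and 3 granulocyte markers with a probe was detected, and of 4 endothelial markers only Vwf was. The arrays carried 58717 gene spots each, none of them saturated, and between 4252 and 6476 probes were well above background on 1 array. Replicate 4 stood apart: it had 656 spots flagged as non-uniform against 9 to 34 on the other arrays, 2952 probes well above background on that array alone, and a median negative control signal of 4.61 against 2.98 to 3.36. The part of these differences in the values of replicate 4 below was not tested.

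Detection followed the pathway unevenly. The 21 detected members are 53.8% of the 39, against 11.9% of all 16419 named genes measured on every array. By genes listed, the lower arm of glycolysis had the largest share detected, 5 of 6. The pentose phosphate pathway followed with 4 of 6, the TCA cycle with 5 of 8 and glucose uptake with 1 of 2. Lactate handling had 2 of 4 and the upper arm of glycolysis 4 of 10. These shares count isoenzymes and not reactions. In the upper arm the undetected Hk1, Hk2, Pfkl, Pfkm and Aldoc stand beside the detected Hk3, Pfkp and Aldoa. Tpi1 alone had no detected gene for its step and was called on 3 arrays. Any 1 probe suffices, and Gapdh had 8, Pkm 4 and Eno1 3, against 1 for each upper-arm gene. None of the 3 pyruvate dehydrogenase genes was detected. A further 5 members were well above background on 1 to 3 arrays and 13 on none, while 29.1% of all named genes were well above background on at least 1 array.

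**Figure D1:**
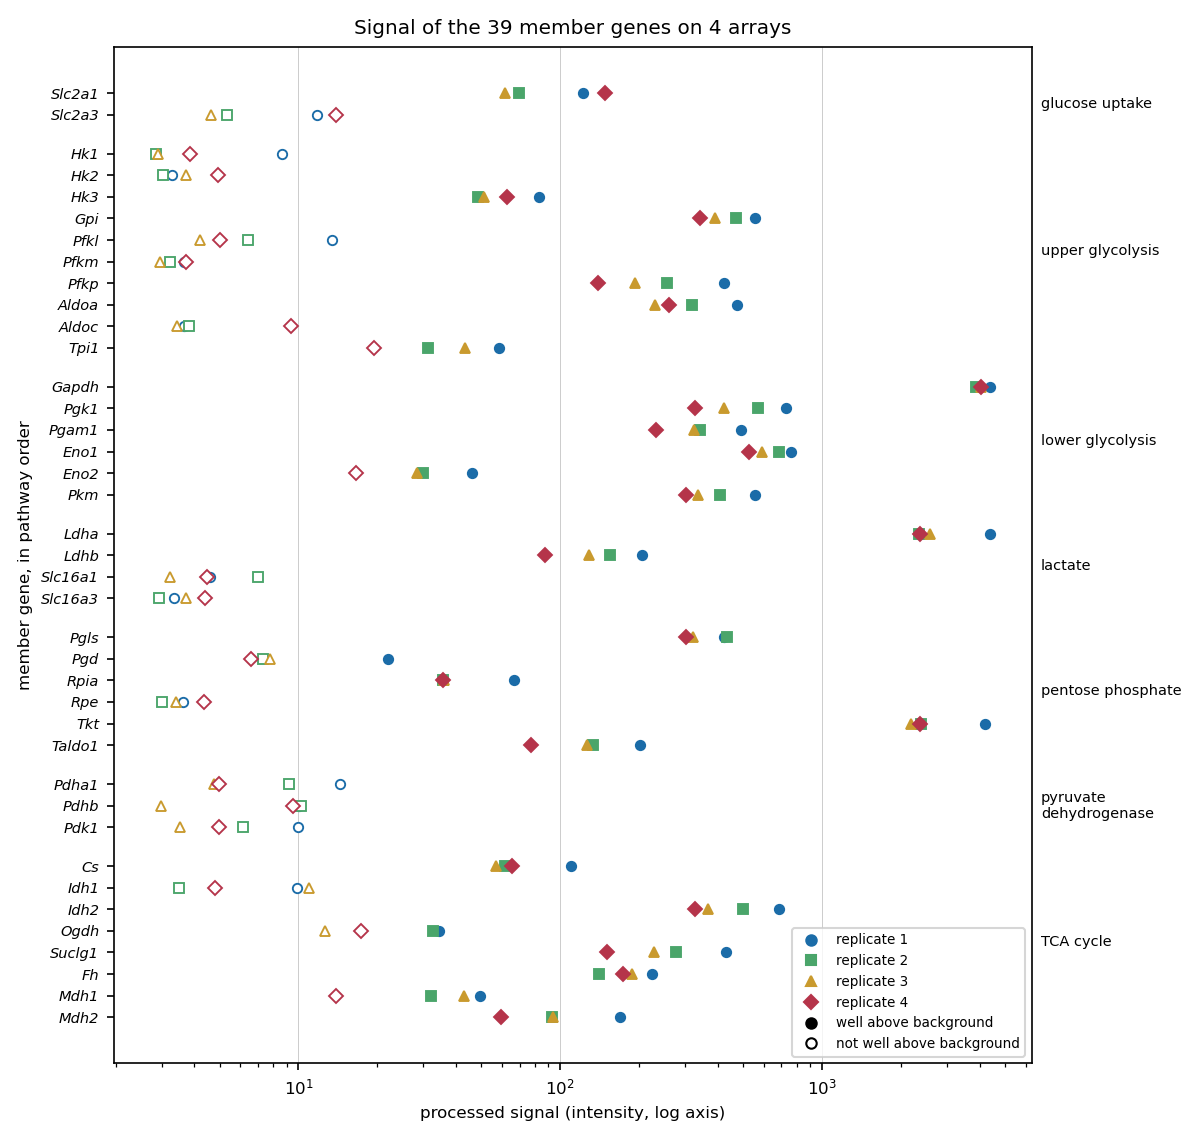
Processed signal (intensity, log axis) of each of the 39 members on the 4 arrays, in pathway order; symbols mark the replicates, filled where the probe was well above background and open where it was not. For a member with several probes the one giving its value is drawn, or, where none was detected, the one called on most arrays and then the brightest; signals of different probes cannot be set against each other, and 21 members have filled symbols on all 4 arrays.

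The promoters of 5 detected members are shown because they hold the letters ACGTG, the core recognised by hypoxia-inducible factors, entirely before the transcription start. These transcription factors are known activators of glycolytic genes. Pfkm, Aldoc, Eno2, Slc16a1, Pdhb and Ogdh, which were not detected on all arrays, hold ACGTG before the start too and are not shown. The stretches are RefSeq sequence of rat assembly GRCr8 from base -150 to base -21 before the start, on the gene's strand, with ACGTG on either strand and the TATA box letters TATAAA in capitals. They are Slc2a1 at chr5:138002372-138002501 (+), Hk3 at chr17:9604881-9605010 (+), Gapdh at chr4:159652488-159652617 (-), Pgam1 at chr1:250673002-250673131 (+) and Ldha at chr1:106507942-106508071 (+).
Slc2a1: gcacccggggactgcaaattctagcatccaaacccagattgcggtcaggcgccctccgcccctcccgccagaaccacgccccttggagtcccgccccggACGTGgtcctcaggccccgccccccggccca
Hk3: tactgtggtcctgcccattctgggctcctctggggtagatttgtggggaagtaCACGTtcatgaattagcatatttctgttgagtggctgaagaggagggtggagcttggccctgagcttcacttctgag
Gapdh: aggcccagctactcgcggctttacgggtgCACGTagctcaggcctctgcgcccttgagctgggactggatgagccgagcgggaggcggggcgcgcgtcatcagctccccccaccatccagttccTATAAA
Pgam1: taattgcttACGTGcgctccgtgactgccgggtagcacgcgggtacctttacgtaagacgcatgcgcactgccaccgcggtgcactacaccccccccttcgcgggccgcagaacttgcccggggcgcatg
Ldha: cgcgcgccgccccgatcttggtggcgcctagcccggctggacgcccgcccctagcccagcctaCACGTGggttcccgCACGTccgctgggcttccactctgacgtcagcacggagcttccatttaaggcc
Windows of 300 bases, from 250 before to 50 after the start, were found for 36 of the 39 members, all except Slc2a3, Pgk1 and Pgls. ACGTG on either strand lay in 14 of the 36 (38.9%), against 19.8% of 21851 windows of protein-coding genes, in 7 of 19 detected members and in 7 of 17 others. CACGTG, the E-box that contains ACGTG on both strands, lay in 4 members (11.1%, against 7.02% of all windows), among them Ldha. The GC box GGGCGG lay in 24 members (66.7%, against 41.8%), TATAAA in 3 (8.33%, against 13.0%) and TGACNNNGC, the core of the antioxidant response element, in 6 (16.7%, against 12.5%). A match is a run of letters in this window and no measure of binding.

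Glucose enters macrophages mainly through facilitative transporters. The processed signal of Slc2a1, the widely expressed glucose transporter, was 122, 69.7, 61.7 and 148 on replicates 1 to 4. Signals on separate arrays differ in overall brightness, so each array was divided by the 75th percentile of its detected probes (384, 281, 236 and 223), and the log2 of that ratio is called the level. The level of Slc2a1 was -1.65, -2.01, -1.93 and -0.59, which gives -1.55 ± 0.66 (SD, n = 4). It was thus highest in replicate 4, by 1.28 over the mean of the other 3 arrays, and it was the only detected member that ranged over more than 2-fold (2.68-fold). Among all 1946 detected named genes, 15.3% did so. The probe has 1 spot per array. Slc2a3, the high-affinity transporter known from neurons and leukocytes, was well above background on no array with either of its probes.

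Hexokinase phosphorylates glucose and traps it in the cell. Of the 3 hexokinase genes only Hk3, the isoenzyme known from leukocytes, was detected, with signals of 82.8, 48.7, 51.0 and 62.6 on replicates 1 to 4. Its level was -2.21, -2.53, -2.21 and -1.83 (-2.20 ± 0.28, SD, n = 4), lowest in replicate 2 and highest in replicate 4. Hk1 and Hk2, the ubiquitous and the inducible isoenzymes, had signals of at most 8.65 and 4.93 and were well above background on no array. Each of the 3 genes has 1 probe printed once, so this contrast is one of detection and not of level.

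Gpi, glucose phosphate isomerase, was among the steadiest members, with signals of 554, 469, 390 and 341 and a level of 0.65 ± 0.10 (SD, n = 4). Phosphofructokinase commits sugar to glycolysis, and only its platelet-type gene Pfkp was detected. The Pfkp signal was 423, 255, 193 and 139, and its level 0.14, -0.14, -0.29 and -0.68 (-0.24 ± 0.34, SD, n = 4). Replicate 1 was highest and replicate 4 lowest, 0.58 below the mean of the other arrays. The liver-type Pfkl and the muscle-type Pfkm were well above background on no array, with signals of at most 13.4 and 3.71.

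Aldolase cleaves the resulting sugar bisphosphate. Aldoa, the muscle-type and most widely expressed aldolase, had signals of 473, 320, 230 and 260 and a level of 0.17 ± 0.14 (SD, n = 4), while Aldoc, the brain-type gene, was well above background on no array with a probe printed 10 times. Tpi1, which interconverts the 2 triose phosphates, was well above background on replicates 1 to 3 (58.1, 31.4 and 43.3) and not on replicate 4 (19.5).

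The lower arm turns triose phosphates into pyruvate and makes ATP. Gapdh, the dehydrogenase that opens it, had signals of 4386, 3882, 4067 and 4040 in the probe that gave its value. Its level was 3.51, 3.79, 4.11 and 4.18 (3.90 ± 0.31, SD, n = 4), lowest in replicate 1. The signals were nearly equal, and the levels differ through the percentile each array was divided by, which was highest on replicate 1. Gapdh is often used as a reference gene. In this probe and this scaling its SD was larger than that of 65.5% of detected genes. Without scaling the SD of this probe was 0.073, the smallest among the probes that gave the values of the detected members.

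Pgk1, phosphoglycerate kinase, had signals of 726, 570, 421 and 328 and a level of 0.83 ± 0.20 (SD, n = 4). Pgam1, phosphoglycerate mutase, had 491, 343, 324 and 231 and a level of 0.35, 0.29, 0.46 and 0.05 (0.29 ± 0.17, SD, n = 4). Both were lowest in replicate 4 in this scaling. Relative to all detected genes, their deviation there was -0.30 and -0.24, and after quantile normalization 0.08 and 0.12. The median deviation of all detected genes itself moved from -0.07 to -0.46 between these settings. The change of sign is thus one against that median and does not show that Pgk1 and Pgam1 rose. Eno1, the ubiquitous enolase, had signals of 759, 686, 588 and 527 and a level of 1.21 ± 0.15 (SD, n = 4), lowest in replicate 1. Eno2, the neuronal enolase, had 1 probe printed 10 times with signals of 46.1, 29.8, 28.4 and 16.5, well above background on replicates 1 to 3 only, and a second probe at background.

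The probe that gave the value of Pkm, pyruvate kinase, had the smallest SD over the 4 arrays among the 21 detected members. Its signals were 554, 406, 336 and 302, and its level was 0.53, 0.53, 0.51 and 0.44 (0.50 ± 0.05, SD, n = 4). Only 1.1% of detected genes had a smaller SD. The other 2 detected Pkm probes had SDs of 0.18 and 0.13. Without replicate 1 the smallest SD was that of Eno1 (0.040 against 0.052 for Pkm), and without replicate 4 that of Ldhb (0.013 against 0.037). Without scaling it was that of Gapdh (0.073 against 0.385 for Pkm). Scaled by all gene probes, the smallest was that of Slc2a1 (0.239 against 0.840 for Pkm). Which member was steadiest thus depended on the scaling and on the arrays used.

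Both lactate dehydrogenase members, Ldha and Ldhb, were detected, while a further gene of that family, Ldhc, was well above background on 1 array. Ldha, the subunit known from muscle and from glycolytic cells, had signals of 4372, 2341, 2587 and 2372 and levels of 3.51, 3.06, 3.46 and 3.41 (3.36 ± 0.20, SD, n = 4), with replicate 2 lowest. Ldhb, the heart-type subunit, had signals of 205, 155, 129 and 87.2. Its levels of -0.91, -0.86 and -0.87 on replicates 1 to 3 lay close together, and replicate 4 lay below them at -1.35 (-1.0 ± 0.24, SD, n = 4). The lactate transporter genes Slc16a1 and Slc16a3 were well above background on no array, Slc16a3 with a probe printed 10 times.

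In the pentose phosphate pathway, the enzymes that rearrange sugars without NADPH were detected except Rpe. Pgd, phosphogluconate dehydrogenase, which forms NADPH, was well above background on replicate 1 only, with signals of 22.0, 7.29, 7.76 and 6.59. Pgls, the lactonase before it, had signals of 423, 433, 322 and 301 and a level of 0.41 ± 0.20 (SD, n = 4), lowest in replicate 1.

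Tkt, transketolase, had signals of 4215, 2391, 2187 and 2366 and a level of 3.46, 3.09, 3.21 and 3.41 (3.29 ± 0.17, SD, n = 4). Taldo1, transaldolase, works with it in the non-oxidative branch. Its signals were 202, 134, 126 and 77.3 and its levels -0.93, -1.07, -0.90 and -1.53 (-1.11 ± 0.29, SD, n = 4), so that replicate 4 lay below the other arrays by 0.56. Rpia, ribose phosphate isomerase, had signals of 66.5, 35.6, 36.0 and 35.6 and a level of -2.72 ± 0.19 (SD, n = 4), while Rpe, the epimerase of the same branch, was well above background on no array.

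Pyruvate dehydrogenase links glycolysis to the TCA cycle. Neither of its E1 subunit genes, Pdha1 with 3 probes and Pdhb with 1, nor the kinase gene Pdk1 with 4 probes was well above background on any array. The 19 probes of the 13 members called on no array had signals from 3.22 to 14.4 on replicate 1, from 2.79 to 10.2 on replicate 2, from 2.91 to 11 on replicate 3 and from 3.71 to 13.9 on replicate 4. Negative control spots had their 95th percentile at 4.00, 3.48, 3.99 and 5.10, and 11, 10, 5 and 5 of the 19 probes exceeded it. Not being well above background is a limit of these arrays and not a level of 0.

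Of the TCA cycle, Cs, citrate synthase, had signals of 110, 61.6, 56.8 and 65.6 and a level of -1.95 ± 0.20 (SD, n = 4). Idh2, the mitochondrial NADP-dependent isocitrate dehydrogenase, had 686, 497, 366 and 326 and a level of 0.84, 0.82, 0.64 and 0.55 (0.71 ± 0.14, SD, n = 4). Idh1, its cytosolic counterpart, was well above background on no array, with a signal of at most 11. Ogdh, a subunit of oxoglutarate dehydrogenase, was well above background on replicates 1 and 2 (34.5 and 32.6) and not on replicates 3 and 4 (12.7 and 17.3).

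Suclg1, a subunit of succinyl-CoA ligase, had signals of 429, 278, 229 and 152 and levels of 0.16, -0.01, -0.04 and -0.56 (-0.11 ± 0.31, SD, n = 4). Fh, fumarase, had signals of 225, 141, 188 and 173 and levels of -0.77, -0.99, -0.32 and -0.36 (-0.61 ± 0.32, SD, n = 4). Mdh2, the mitochondrial malate dehydrogenase, had signals of 169, 92.9, 94.1 and 59.2 and levels of -1.18, -1.60, -1.33 and -1.91 (-1.50 ± 0.32, SD, n = 4). Replicate 4 was thus lowest in Suclg1 and Mdh2, whereas in Fh it lay beside replicate 3 above the others. The cytosolic Mdh1 was well above background on replicates 1 to 3 (49.4, 32.1 and 42.9) and not on replicate 4 (13.9).

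**Figure D2:**
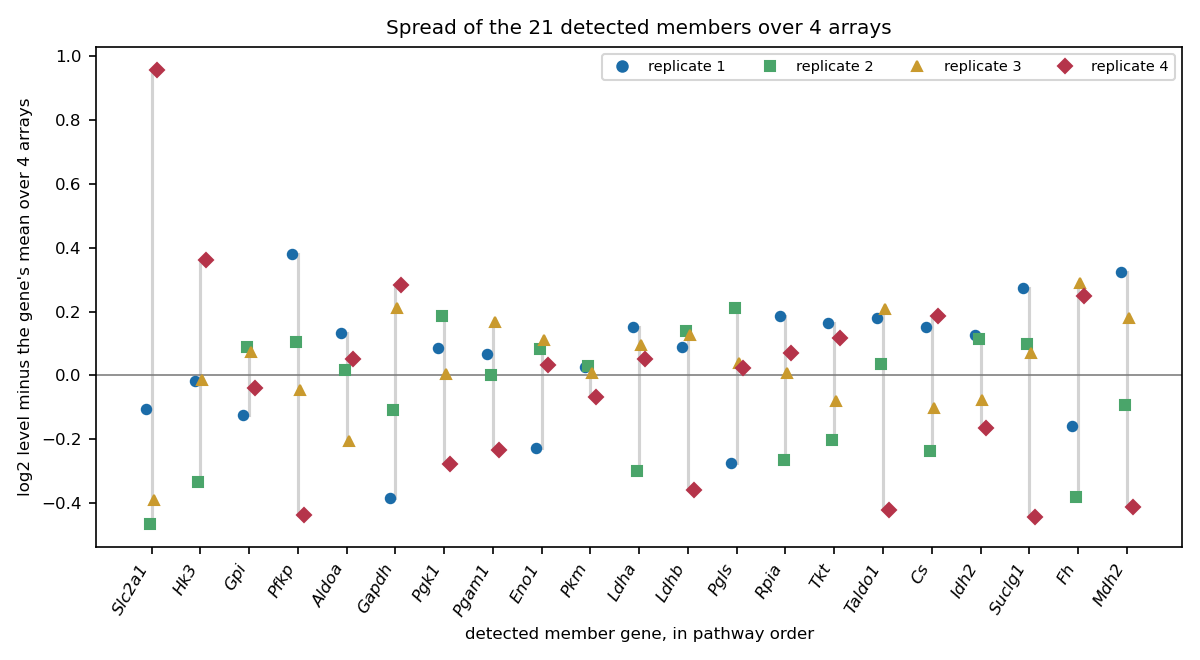
Level of each of the 21 detected members on each array (log2), minus the gene's own mean over the 4 arrays; symbols mark the replicates and grey lines span the range. Slc2a1 in replicate 4, at 0.96 above its mean, is the farthest point, and Pkm has the shortest line.

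The SD of the detected members over 4 arrays had a median of 0.203, with 0.05 for Pkm and 0.66 for Slc2a1 as its ends, against a median of 0.241 over the 1946 detected named genes. After quantile normalization the medians were 0.205 and 0.357, and after the normexp background correction both were 0.167. The level was highest on replicate 1 in 8 of 21 members, where 27.8% of detected genes were highest, and on replicate 4 in 4 of 21, against 30.1%. It was lowest on replicate 4 in 9 of 21 members, against 39.6% of detected genes.

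Of the 24 members detected on replicates 1 to 3, Tpi1, Eno2 and Mdh1 were lost on replicate 4, as were 20.3% of the named genes detected on those arrays. Each of the 3 had its lowest signal there. Members too dim on replicate 4 to be called there could not enter the counts over 21 members. The median deviation of the 21 members on replicate 4 from the mean of the other arrays was 0.03, against -0.07 for all detected genes, or 0.10 relative to them. The deviation was below 0 in 10 of the 21 members, against 56.6% of all detected genes.

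Relative to the median over all detected named genes, replicate 4 lay below the other arrays in 9 of the 21 members. For all 1946 detected genes the number was 973, as the use of a median fixes in advance. Members on both sides are thus no trait of this set. Set against the median over every detected named gene, replicate 4 lay above the other arrays by 1.35 in Slc2a1, 0.55 in Hk3, 0.45 in Gapdh, 0.32 in Cs and 0.14 in Aldoa. On the low side the values were -0.52 in Suclg1, -0.51 in Pfkp, -0.49 in Taldo1, -0.48 in Mdh2 and -0.41 in Ldhb. These 5 and 5 members kept their side under each of 11 other ways of scaling, correcting, calling or leaving out arrays that kept the filter on dim probes, 2 of which shift all genes of an array alike and cannot move these values. For members with 1 probe of 1 spot, 4 of the 11 changed only the median subtracted: all spots kept, probes averaged, negative controls, and 3 of 4 arrays. Slc2a1 stayed between 1.33 and 1.42 under these. The share of all detected genes that keep their side was not counted. The sizes in the 5 and 5 members were less stable. Slc2a1 ranged from 0.75 to 1.61, Hk3 from 0.33 to 0.62 and Gapdh from 0.29 to 0.58 over the 11 settings. Cs ranged from 0.05 to 0.41 and Aldoa from 0.03 to 0.51. The low side ranged from -0.57 to -0.15 in Suclg1, -0.62 to -0.15 in Pfkp, -0.57 to -0.33 in Taldo1, -0.62 to -0.15 in Mdh2 and -0.44 to -0.25 in Ldhb. The other 11 detected members changed side under at least 1 of these 11 settings. With all probes in the reference and no filter, 20 of the 21 members lay below it, all except Slc2a1. That reference, the median over 16419 mostly dim genes, was itself at 0.81, against -0.07 with the filter. The share of all detected genes below it was not counted, so this is not read as a trait of the members. Genes of glycolysis and of the TCA cycle lay on both sides. On the same scale the macrophage markers Spi1 and Cd68 lay at 1.52 and 1.17 and the endothelial marker Vwf at 0.86, while Lyz2, Fcgr1a and Laptm5 lay at 0.11, -0.20 and -0.14. Spi1 and Cd68 were dim, with signals of 32.0, 25.3, 21.8 and 53.9 and of 34.6, 16.3, 16.6 and 34.1 on replicates 1 to 4. Whether these markers and the members share a source was not tested.

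**Figure D3:**
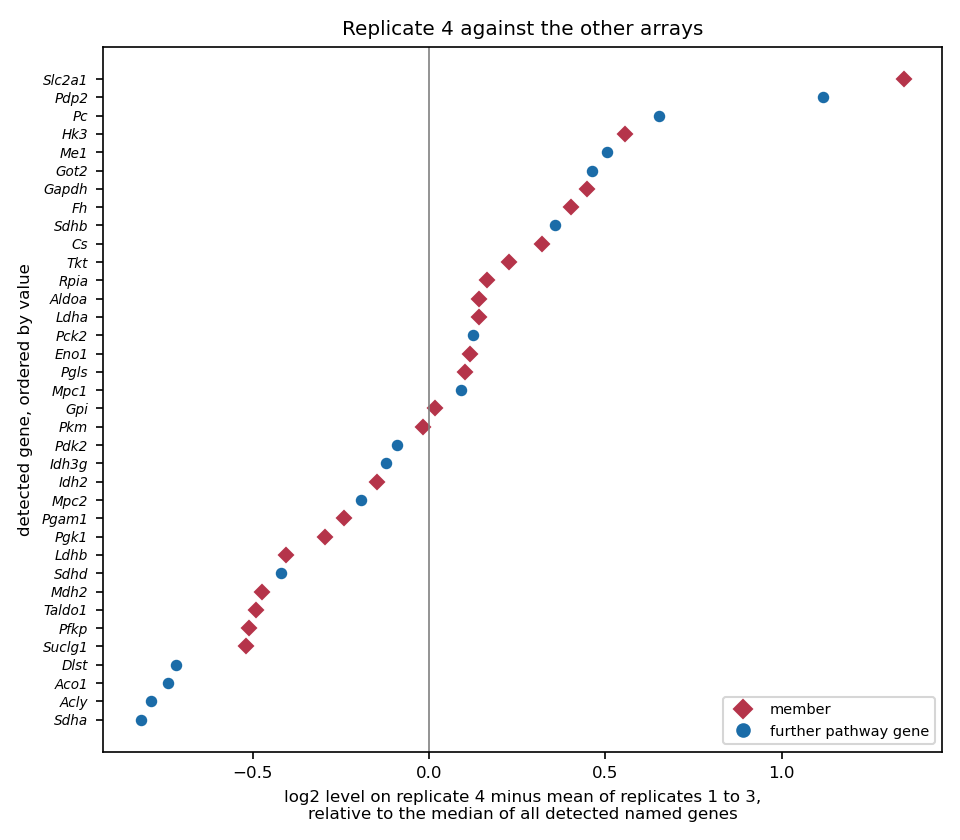
Level on replicate 4 minus the mean of replicates 1 to 3 (log2), relative to the median of all detected named genes, for the 21 detected members (diamonds) and 15 detected further pathway genes (circles), ordered by value. Slc2a1 is the highest of the members at 1.35 and Suclg1 the lowest at -0.52.

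Replicate spots give the noise within an array for 7 detected members whose probe is printed 10 times. The range over arrays was larger than the largest SE of a mean over spots in all 7, most closely in Pkm (0.10 against 0.063) and Rpia (0.45 against 0.17). In the others it was 0.40 against 0.068 in Pgam1, 0.34 against 0.050 in Eno1, 0.50 against 0.11 in Ldhb, 0.63 against 0.062 in Taldo1 and 0.29 against 0.042 in Idh2. A range over several arrays tends to exceed the SE of a single mean through spot noise alone. The larger ranges thus do not by themselves show that the arrays differed. Spots of 1 array share its RNA and its labelling, so spot noise leaves out the differences between cultures. The largest SE was above the SD over the 4 arrays in Pkm alone (0.063 against 0.045). The other 14 detected members have 1 spot per array, or 2 for Cs.

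**Figure D4:**
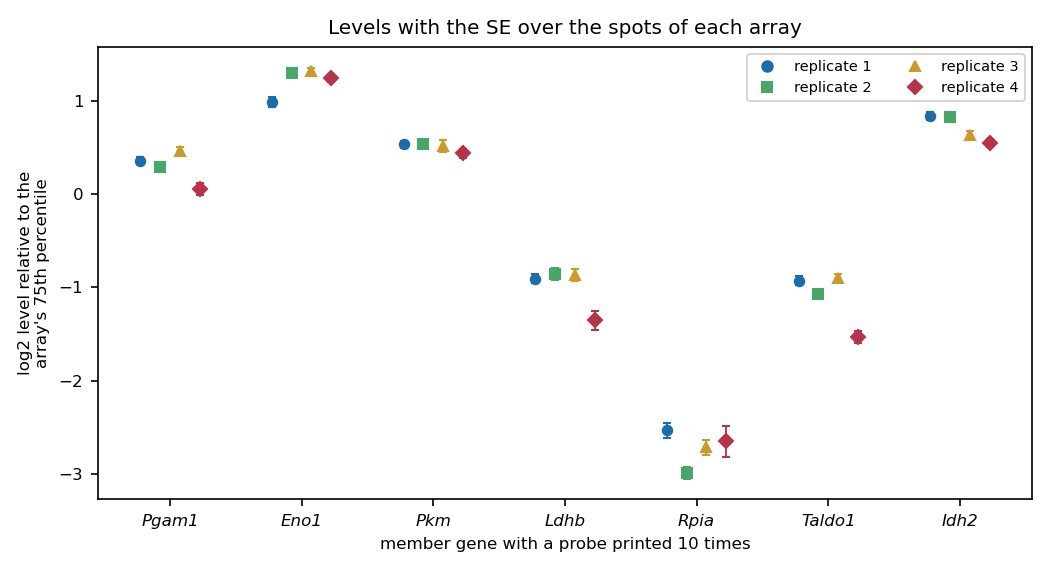
Level (log2, relative to the 75th percentile of the array's detected probes) of the 7 detected members with a probe printed 10 times, by replicate; bars are the SE over the kept spots of that array. Replicate 4 lies below the other arrays in Ldhb and Taldo1, and the 4 points of Pkm span 0.10.

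Probes of 1 gene did not always agree. All 8 Gapdh probes were detected, and the level on replicate 4 differed from the mean of the other arrays by between -0.18 and 0.69 among them, below 0 in 2 of 8. The SD over arrays ranged from 0.10 to 0.34 between these probes. The 3 Eno1 probes gave 0.04 to 0.24, the 3 detected Pkm probes -0.22 to 0.27 and the 3 Ldha probes -0.27 to 0.07. A 4th Pkm probe was well above background on no array, with signals of 3.25, 2.73, 2.94 and 3.99. The other detected members have 1 probe each, so this spread could not be measured for them.

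**Figure D5:**
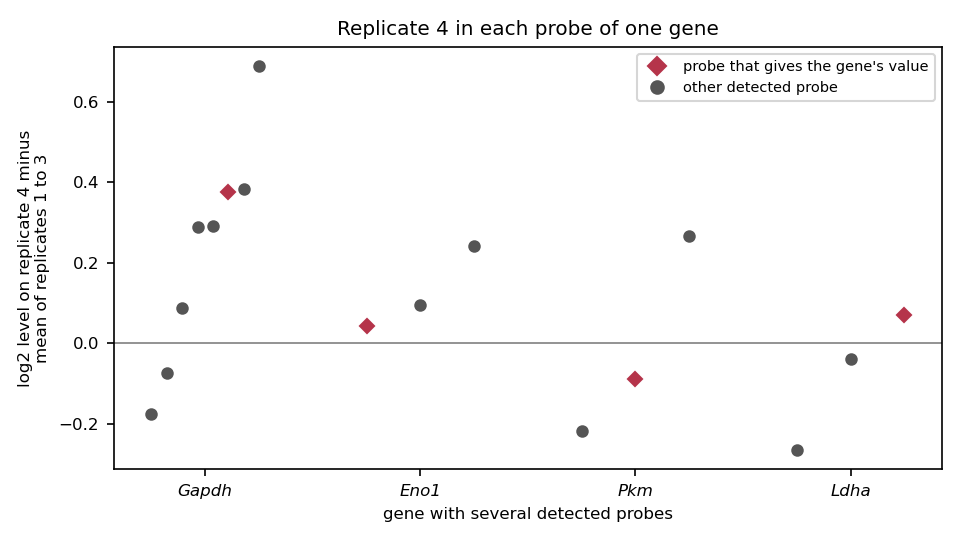
Level on replicate 4 minus the mean of replicates 1 to 3 (log2) in each detected probe of Gapdh (8 probes), Eno1, Pkm and Ldha (3 probes each); diamonds mark the probe that gives the gene's value. The Gapdh probes span -0.18 to 0.69, and Pkm and Ldha have probes on either side of 0.

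Other genes of the same pathways filled some of the gaps. Of 56 such genes 54 had a probe, 15 (27.8%, against 53.8% of the members and 11.9% of all named genes) were detected, 18 were well above background on 1 to 3 arrays and 21 on none. In mitochondrial pyruvate entry the carrier genes Mpc1 (-2.11 ± 0.16) and Mpc2 (-1.52 ± 0.23) were detected, as were the kinase gene Pdk2 (-1.47 ± 0.19), the phosphatase gene Pdp2 (-3.90 ± 0.53) and pyruvate carboxylase, Pc (-3.30 ± 0.30; SD, n = 4). Dlat and Dld, the remaining catalytic subunits of pyruvate dehydrogenase, were not.

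Detected TCA cycle genes of that list were Aco1, the cytosolic aconitase and iron regulator (-1.16 ± 0.41), Idh3g (0.94 ± 0.16), Dlst (-1.35 ± 0.49) and the succinate dehydrogenase genes Sdha (-1.87 ± 0.45), Sdhb (-1.72 ± 0.32) and Sdhd (-1.37 ± 0.30; SD, n = 4). The others were Acly, which makes cytosolic acetyl-CoA from citrate (-1.60 ± 0.45), Me1, an NADPH-forming malic enzyme (-3.14 ± 0.25), Got2 (-2.85 ± 0.24) and Pck2 (-1.52 ± 0.23; SD, n = 4). Sdha, Acly, Aco1 and Dlst lay lowest on replicate 4 among the 15, at -0.82, -0.79, -0.74 and -0.72 relative to all detected genes, below every detected member. Highest were Pdp2 at 1.12, Pc at 0.65, Me1 at 0.51, Got2 at 0.46 and Sdhb at 0.36. The top 2 were dim, with signals of 21.2, 14.8, 14.0 and 25.6 for Pdp2 and 36.8, 27.0, 19.8 and 30.7 for Pc. The lowest called signals were 12.8, 13.5, 13.7 and 18.0 on replicates 1 to 4. Acod1, which makes itaconate in activated macrophages, and the glycolytic regulator Pfkfb4 were well above background on no array, and Pfkfb3 was on 3.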

How the data were processed

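Cy3-labelled RNA of 4 cultures, prepared from 100 ng of total RNA per the labels, was hybridised to 1-colour Agilent arrays, 1 array each. The deposited values are spot intensity on a linear scale. The submitters' processing notes name Agilent Feature Extraction, version 11.0.1.1, whose processed signal is background-subtracted, and the file headers record no scaling across arrays. The deposited flags, 0 or 1 per spot, were used as written. Spots flagged non-uniform or population outlier were left out, log2 intensities of a probe's spots were averaged, and a call on an array needed over 50% of those spots to be well above background. Only 7.04% of 45598 probes were called on all arrays, and the 75th percentile over these was the scaling unit. The detected probe with the highest mean gave a gene's value. Transcript accessions without versions were matched to the GRCr8 RefSeq gene table, which named 21109 probes (46.3%); the headers name an older build, so probes carry no coordinates. The members and lists were chosen with earlier results of these data known. All members are accounted for, and every detected gene of both lists is named; 1 more gene was left out of the further list and is not reported here. Whether the biological replicates came from separately grown cultures is not given in the sources used here beyond that label. The scaling and the deviation on replicate 4 were tested on simulated data with known shifts. Spot flags, calls and the choice among probes were not part of that test. Alternatives were run with limma version 3.58.1 in R version 4.3.3 and with Python version 3.11.15, numpy version 2.4.6 and pandas version 2.3.3.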

Additional observations from a re-analysis of the deposited data

Results flagged for a closer look

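Among the 21 detected members, Ldhb had 1 array far from the other 3, which lay close together: its level was -1.35 in replicate 4, against -0.91, -0.86 and -0.87 in replicates 1 to 3. Chance gives such a gap in about 1 in 20 groups of 4, and 149 of 1946 detected named genes (7.66%) showed one.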

How the results depend on the processing

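The number of members detected on all arrays was 21, and 27 when detection was set by negative control spots, 24 when 3 of 4 arrays were enough, and between 21 and 24 when 1 replicate was left out; the members gained without replicate 4 were Tpi1, Eno2 and Mdh1. The median SD of detected members was 0.203, and 0.817 when scaled by all gene probes, 0.444 without scaling and 0.330 with no filter on dim probes; over all detected genes it was 0.241, and 0.851, 0.456 and 0.551 under these, and 0.357 after quantile normalization. The members' value lay between 0.193 and 0.247 with 1 replicate left out, and that of all detected genes between 0.192 and 0.254. The members' median was above that of all detected genes without replicate 3 (0.247 against 0.242) and without replicate 4 (0.204 against 0.192). After the normexp background correction both medians were 0.167. The median deviation on replicate 4 relative to all detected genes was 0.10, and 0.33 after quantile normalization, -0.13 after the normexp background correction with an offset of 50 and -0.76 with no filter on dim probes, where most genes compared lie at background. With replicate 1, 2 or 3 left out it lay between -0.03 and 0.03. Some counts were examined only after the data were seen. Members ranging over more than 2-fold numbered 1 of 21 (15.3% of detected genes), 3 of 21 (39.9%) after quantile normalization, 10 of 21 (52.8%) without scaling, 20 of 21 (92.8%) when scaled by all gene probes, 6 of 27 (36.0%) with detection by negative controls, 3 of 24 (24.5%) when 3 of 4 arrays were enough, 14 of 39 (72.5%) with no filter, 0 of 21 (2.00%) with normexp and 0 of 24 (3.66%) without replicate 4. Members lowest on replicate 4 numbered 9 of 21 (39.6%), 8 (21.3%) with normexp, 11 (66.1%) after quantile normalization, 12 (58.8%) without scaling, 12 of 27 (39.8%) with negative controls, 12 of 24 (43.8%) with 3 of 4 arrays, 12 of 39 (10.6%) with no filter and 12 of 21 (44.7%) without replicate 1; all 21 (96.3%) were when scaled by all gene probes, and that percentile, a signal of 10.1 on replicate 4 and of 3.82 to 5.85 on the others, lies near background. No paired analysis was possible because there is 1 group. The number of arrays and the distance of dim signals from background limit every value.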
